A study of Mus musculus with 19 samples.

Results

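The genes described here were 7 POU transcription factor genes of the mouse, namely the class II genes Pou2f1 and Pou2f2, the class III genes Pou3f1, Pou3f2, Pou3f3 and Pou3f4, and the class VI gene Pou6f1. They were picked by symbol through their Ensembl identifiers, and were 7 of 47069 genes in the count tables and 7 of 15 POU genes. The RNA-seq data compared ipsilateral retinal ganglion cells (iRGCs), whose axons avoid the midline at the optic chiasm, with contralateral ones (cRGCs), whose axons cross it. The comparison asked which genes are expressed at different levels when one set of axons crosses and the other does not. There were 3 libraries of each population, made from polyA RNA of cells sorted from retinas at E16.5.

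Both populations came from C57/DBA F1 embryos of pooled sexes, labelled wild type, and both carried a Cre-dependent Sun1-GFP reporter that puts green fluorescence on the nuclear envelope. iRGCs were the GFP+ cells of Slc6a4-Cre; Sun1-GFP retinas, where Cre follows the serotonin transporter gene. cRGCs were the GFP+ cells of Pou4f2-Cre; Sun1-GFP retinas from which the ventrotemporal region, the source of most iRGCs, had been dissected away. Cre recombination is permanent, so that GFP records that a driver was once active and not that it still is. Driver line and dissection differed together between the populations and cannot be told apart from the cell type. The number of embryos behind a library was not given in the sources used here, so that p-values measure the spread between these libraries. The 6 libraries held 28193178 to 33638083 counts on genes.

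POU proteins bind DNA through a POU-specific domain and a POU homeodomain joined by a linker, and many recognise the octamer ATGCAAAT. Pou2f1 is expressed in nearly all cells, Pou2f2 in B cells and neurons, and the class III genes in neural precursors and young neurons, where they often act redundantly and together with Sox proteins. Pou6f1 is most abundant in brain. In the retina the class IV genes Pou4f1, Pou4f2 and Pou4f3 are the best known POU genes of ganglion cells.

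The kinship of the 7 genes is shown by the coding stretch of 48 bases (16 codons) in which their predicted products were most alike. It falls in the part of the homeodomain that contacts DNA. Capitals mark bases that differ from Pou3f1.
Pou2f1: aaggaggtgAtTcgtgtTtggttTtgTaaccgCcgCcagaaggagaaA
Pou2f2: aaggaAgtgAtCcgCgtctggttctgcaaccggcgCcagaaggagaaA
Pou3f1: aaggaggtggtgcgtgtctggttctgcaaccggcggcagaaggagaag
Pou3f2: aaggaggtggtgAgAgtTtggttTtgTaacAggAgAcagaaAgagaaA
Pou3f3: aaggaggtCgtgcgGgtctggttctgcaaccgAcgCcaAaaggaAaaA
Pou3f4: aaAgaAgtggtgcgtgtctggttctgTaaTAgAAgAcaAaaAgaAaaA
Pou6f1: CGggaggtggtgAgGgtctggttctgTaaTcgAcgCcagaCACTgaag
On GRCm38 these stretches lay at chr1:165894980-165895027 for Pou2f1 (minus strand), chr7:25096962-25097009 for Pou2f2 (minus strand), chr4:124658838-124658885 for Pou3f1 (plus strand), chr4:22486896-22486943 for Pou3f2 (minus strand), chr1:42698475-42698522 for Pou3f3 (plus strand), chrX:110815419-110815466 for Pou3f4 (plus strand) and chr15:100578309-100578356 for Pou6f1 (minus strand), each within 1 exon. All 4 class III genes coded for the same 16 residues here, although Pou3f2 differed from Pou3f1 at 10 bases, Pou3f3 at 7 and Pou3f4 at 12. Pou2f1 and Pou2f2 shared 15 of the 16 residues with Pou3f1, and Pou6f1 shared 13.

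This likeness did not extend to whole sequencing reads, which were 50 bases long. Among the 6 pairs of class III genes the longest identical coding run was between 23 and 38 bases, and among the 15 other pairs it was between 11 and 20 bases. No run of 50 bases was found in the same orientation in transcripts of any pair of the 7 genes. Pou2f1 shared 18.1% of its exon bases with Cd247 and Pou3f1 shared 8.57% of its exon bases with Gm2164, both on the opposite strand. Whether strand was used in counting was not stated, and reads from those bases cannot be assigned to one partner without it.

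The driver gene of iRGCs did not separate the populations, and this bears on every value below. Slc6a4 stood at 2.06 CPM (counts scaled to a common library size with TMM factors) in iRGC replicate 1, at 33.4 in replicate 2 and at 116 in replicate 3. In the cRGC libraries it stood at 48.1, 35.4 and 30.5 CPM. Replicate 3 alone of the iRGC libraries was above all cRGC libraries, replicate 2 lay within their range and replicate 1 far below it. Slc6a4 did not pass the test (log2 fold change 0.41 ± 0.929, standard error, adjusted p = 0.768 by the quasi-likelihood test of edgeR). Zic2, a transcription factor gene that marks iRGCs, was higher in each iRGC library (155 ± 19.9 CPM against 61 ± 4.38, SD, n = 3; log2 fold change 1.34, adjusted p = 2.09e-04). Because Slc6a4 was lowest there, the POU results are also given without iRGC replicate 1.

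The cell type markers differed between the populations too. For comparison with each list below, 23.1% of all tested genes were lower and 23.3% higher in iRGCs at an adjusted p under 0.1. Of 14 general ganglion cell markers, 13 were lower in iRGCs and none was higher (median log2 fold change -1.93, against 0.00 over all 15941 tested genes). They included the glutamate transporter gene Slc17a6 (-2.07), the RNA-binding protein gene Rbpms (-2.00), the neurofilament gene Nefl (-1.99) and the abundant intermediate filament gene Ina (-1.88), while Thy1 did not pass the test (adjusted p = 0.121). Summed over the list, the level was 3804, 5273 and 7785 CPM in the iRGC libraries and 19750, 18040 and 22360 CPM in the cRGC libraries. All 12 progenitor markers were higher in iRGCs (median 2.58), among them Sfrp2 (2.92), Nr2e1 (2.76), Fgf15 (2.73) and the cyclin gene Ccnd1 (2.48), the most abundant. All 8 neurogenic genes were also higher (median 1.60), among them Neurog2 (1.99) and Neurod1 (1.92), with Hes6 the most abundant (1.49). The amacrine list had 7 of 8 higher (led by Prdm13, Ptf1a and Slc6a9, with Tfap2b the most abundant), the photoreceptor list 5 of 5 tested (led by Otx2, the most abundant) and the horizontal cell list 1 of 5 (Prox1).

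Markers from outside the neural retina were low but uneven. The endothelial list summed to 445, 630 and 431 CPM in the iRGC libraries and to 85.2, 107 and 70 CPM in the cRGC libraries, and its most abundant gene was Kdr, which retinal progenitors also express. The defining gene Cdh5 had no count in any cRGC library and stood at 15.3, 81.3 and 0.158 CPM in the iRGC libraries, highest in iRGC replicate 2. That library also had the highest summed mural (274 CPM) and erythroid (92.7 CPM) levels, led by Notch3 and Hbb-bs. Of the tested markers, 4 of 4 endothelial, 3 of 4 mural, 4 of 4 erythroid, 3 of 6 Schwann and oligodendrocyte and 2 of 5 microglial and lymphoid genes were higher in iRGCs and none was lower, with Olig2 and Csf1r the most abundant of the last lists. Sox10, which defines Schwann cells and oligodendrocytes, had no count in any library, and Cd79a, which marks B cells, was at most 0.662 CPM. None of 4 tested pigment cell genes (Mitf the most abundant) and not the single tested lens gene, Crybb1, passed the test, and Rpe65 was at most 0.126 CPM and Mip and Lim2 at 0. Without iRGC replicate 1 the counts of the Schwann and oligodendrocyte list were 1 lower and 2 higher. Without iRGC replicate 2 only 1 erythroid gene and 1 microglial and lymphoid gene were higher. Without cRGC replicate 3 the higher genes were 7 of the endothelial, 3 of the erythroid and 2 of the lens list. The filter on low counts was run anew in each such fit and could let in other genes. The endothelial and lens counts therefore exceed the 4 and 1 genes tested with all libraries. The part of these cells in the POU differences was not tested, and in bulk samples fewer cells of a type and less RNA per cell cannot be told apart.

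**Figure D1:**
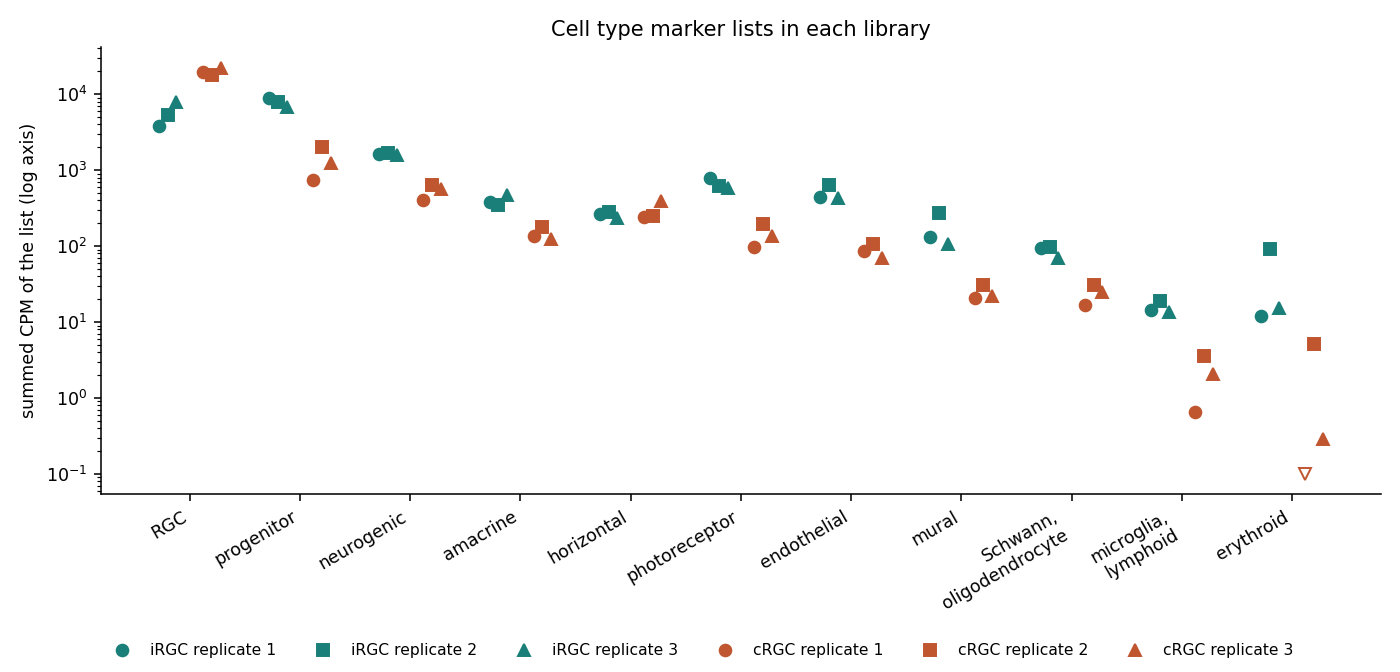
Summed CPM (log axis) of 11 cell type marker lists in each of the 6 libraries, iRGC in green and cRGC in orange, with 1 symbol per replicate; the open triangle marks a sum of 0. Ganglion cell markers are higher in all cRGC libraries (18040 to 22360 against 3804 to 7785 CPM), whereas progenitor markers are higher in all iRGC libraries (6708 to 8986 against 739 to 1997 CPM).

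Of the 7 POU genes, 6 passed the filter on low counts, and 4 of these were lower in iRGCs and 0 higher at an adjusted p under 0.1. Over all tested genes 46.4% passed this threshold, 23.1% lower and 23.3% higher in iRGCs. The 4 were Pou2f2, Pou3f1, Pou3f3 and Pou6f1, whereas Pou2f1 and Pou3f2 did not pass and Pou3f4 was too low to be tested. The libraries of the populations did not overlap for 3 of the 6, Pou2f2, Pou3f1 and Pou3f3, all lower in iRGCs, which was so for 28.2% of all tested genes. Without iRGC replicate 1 the count was 3 lower, Pou6f1 no longer passing, and without iRGC replicate 2 or cRGC replicate 1 it was 2 lower, neither Pou3f1 nor Pou6f1 passing. It was 5 lower without iRGC replicate 3 or cRGC replicate 2, where Pou3f4 passed the filter and the test. The filter was run anew in each such fit and asked for fewer libraries. Pou3f4 passed it through its cRGC counts alone (14, 6 and 58, against 0, 0 and 3 in iRGCs), so the higher count of genes reflects the filter. The set of genes was chosen with earlier results of these data known, and no test of the set was made.

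**Figure D2:**
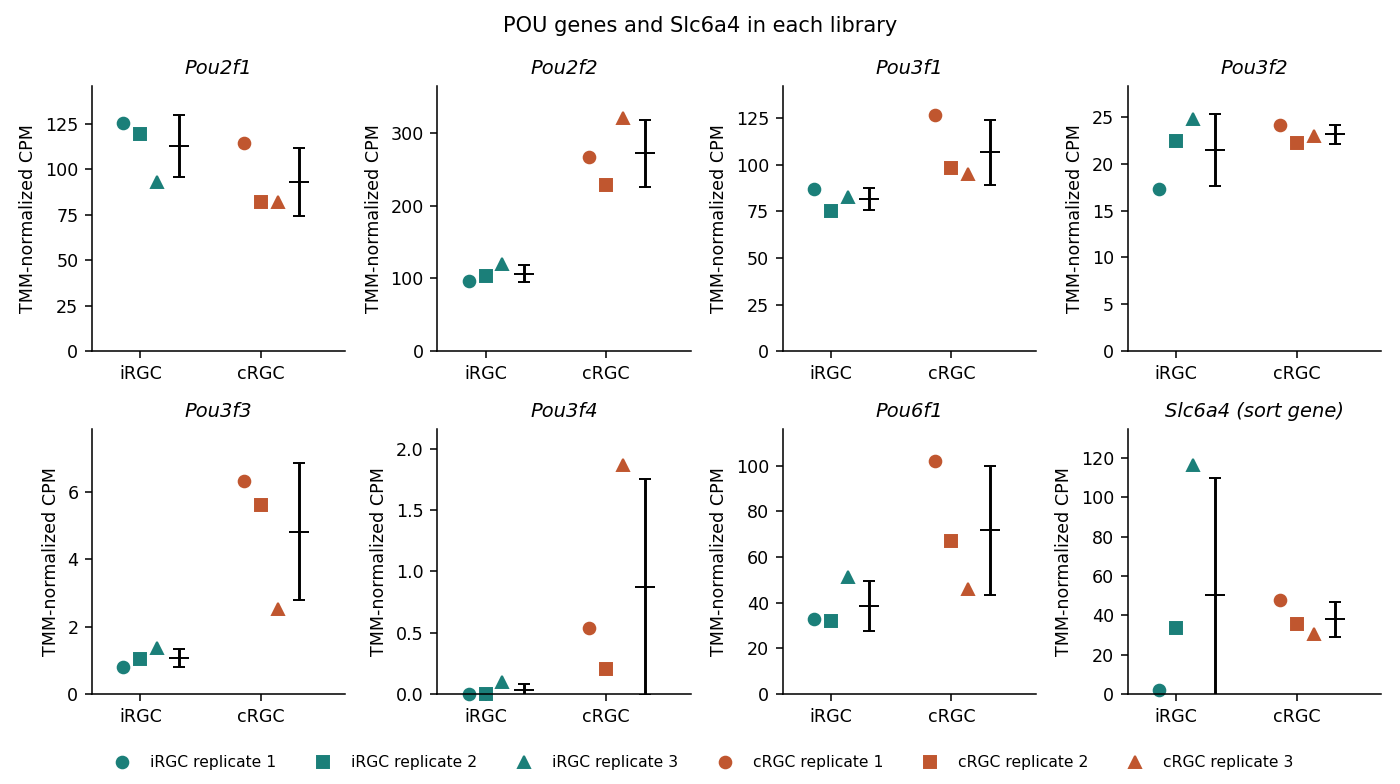
TMM-normalized CPM of the 7 POU genes and of the driver gene Slc6a4 in each library, 1 symbol per replicate, with the mean and SD of 3 libraries in black (bars are cut at 0). Pou2f2, Pou3f1 and Pou3f3 are lower in every iRGC library than in any cRGC library, Pou2f1, Pou3f2 and Pou6f1 overlap, and Slc6a4 is at 2.06 CPM in iRGC replicate 1.

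Among the class III genes, Pou3f3 had the largest tested difference. This gene, expressed in precursors and upper-layer neurons of the cortex, consists of a single exon at chr1:42695768-42703176 on the plus strand. It stood at 0.804, 1.05 and 1.36 CPM in the iRGC libraries and at 6.34, 5.63 and 2.52 CPM in the cRGC libraries. The groups did not overlap, but cRGC replicate 3 lay closer to the iRGC libraries than to the other cRGC libraries. Pou3f3 was lower in iRGCs (-2.17 ± 0.564 on the log2 scale, standard error, edgeR adjusted p = 0.0142), at 22.2% of the cRGC level. It passed the threshold in each fit that left out a library, with log2 fold changes from -2.47 to -1.94, and without iRGC replicate 1 it was -2.00 (adjusted p = 0.0255).

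Pou3f1, known for its part in myelination by Schwann cells, is a single-exon gene at chr4:124656807-124660655 on the plus strand. Its level was 86.8, 75.4 and 82.7 CPM in the iRGC libraries and 127, 98.2 and 94.9 CPM in the cRGC libraries. The groups were separated by a narrow gap and cRGC replicate 1 was the highest. The difference was modest (log2 fold change -0.39 ± 0.138, standard error, or 76.5% of the cRGC level, edgeR adjusted p = 0.0521), and its 95% interval ran from -0.70 to -0.07. The call was lost without iRGC replicate 2 (adjusted p = 0.157) or cRGC replicate 1 (0.176), and kept without iRGC replicate 1 (-0.43, adjusted p = 0.0632). Gm2164, the antisense gene that overlaps it, was low, at 0.74 to 2.41 CPM over the 6 libraries (adjusted p = 0.663).

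Pou3f2, a proneural factor of the cortex and hypothalamus, is a single-exon gene at chr4:22482780-22488366 on the minus strand. It stood at 17.3, 22.4 and 24.8 CPM in the iRGC libraries and at 24.2, 22.3 and 23 CPM in the cRGC libraries. The lowest value was that of iRGC replicate 1 and the highest that of iRGC replicate 3, so that the groups overlapped. The log2 fold change was -0.11 ± 0.183 (standard error; edgeR adjusted p = 0.696) with a 95% interval from -0.52 to 0.31, and it was 0.03 without iRGC replicate 1 (adjusted p = 0.918).

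Pou3f4, an X-linked gene needed for the development of the inner ear, lies at chrX:110814280-110817207 on the plus strand. It had 0, 0 and 3 counts in the iRGC libraries and 14, 6 and 58 counts in the cRGC libraries. Almost all of the signal was therefore in cRGCs, and 74.4% of the cRGC counts came from replicate 3. Pooled over the libraries of each population, counts over scaled library sizes were 28.8 times higher in cRGCs, with an exact counting interval of 9.5 to 143 that covers counting error only. In a fit of 24342 genes without the filter on low counts, the log2 fold change was -4.61 (adjusted p = 0.113, edgeR), a value that depends on how zeros are treated. The adjusted p was 0.479 without cRGC replicate 3, 0.0974 without cRGC replicate 2 and 0.0457 without iRGC replicate 3, the single iRGC library with counts.

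Levels of different genes were compared per kilobase of exon, taken as the union over all annotated transcripts of a gene. For a gene with many transcripts, such as Pou2f1 (18 transcripts, 16597 bases), the union can be longer than a transcript and lower the value. Pou3f1 has 1 transcript of 3849 bases. The order between genes is therefore not strictly one of transcript abundance. In iRGCs the order was Pou3f1 (21.2 ± 1.51 CPM per kb, SD, n = 3), Pou2f2 (12.9 ± 1.41), Pou2f1 (6.8 ± 1.04), Pou6f1 (5.56 ± 1.56), Pou3f2 (3.85 ± 0.686), Pou3f3 (0.145 ± 0.0373) and Pou3f4 (0.0108 ± 0.0187). In cRGCs Pou2f2 came first (33 ± 5.59 CPM per kb), followed by Pou3f1 (27.7 ± 4.56), Pou6f1 (10.3 ± 4.05), Pou2f1 (5.6 ± 1.13), Pou3f2 (4.14 ± 0.174), Pou3f3 (0.652 ± 0.275) and Pou3f4 (0.298 ± 0.301). The neighbouring values of Pou2f1 and Pou6f1 in iRGCs overlapped between libraries, as did those of Pou2f2 and Pou3f1, of Pou6f1 and Pou2f1 and of Pou3f3 and Pou3f4 in cRGCs. Pou3f1 exceeded Pou3f2, and Pou3f2 exceeded Pou3f3 and Pou3f4, in each of the 6 libraries.

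**Figure D3:**
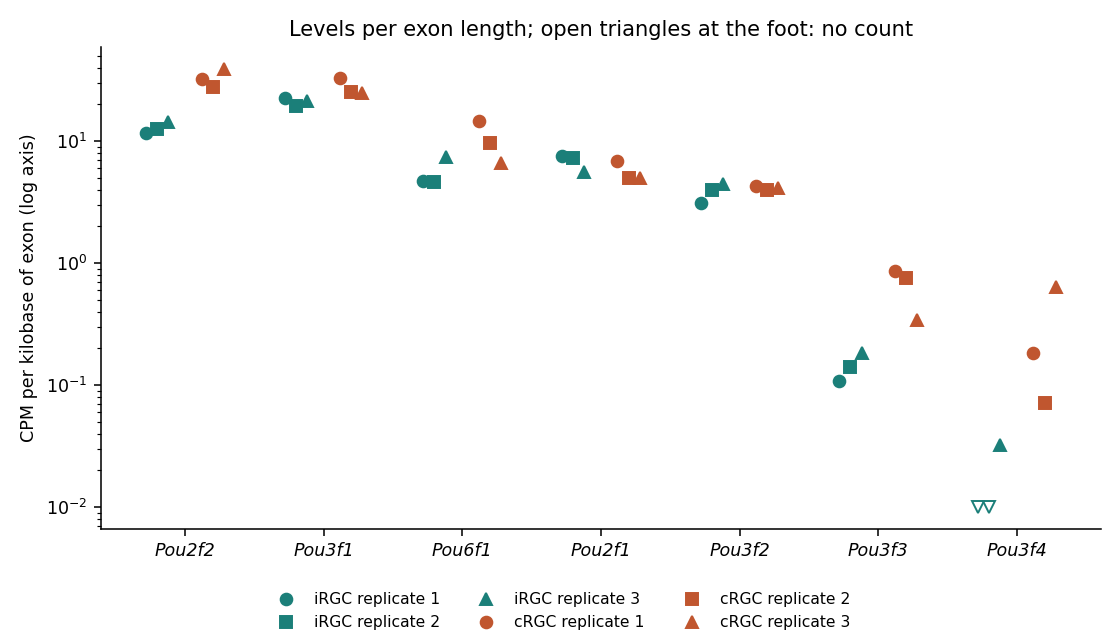
CPM per kilobase of exon (log axis) of the 7 POU genes in each library, ordered by the cRGC mean, iRGC in green and cRGC in orange, 1 symbol per replicate; open triangles at the foot mark libraries with no count. Pou3f1 and Pou2f2 have the highest values, while Pou3f3 and Pou3f4 stay under 1 CPM per kb in all 6 libraries.

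Pou3f1 made up most of the class III transcripts in both populations. Per exon length it gave 84.1% ± 3.01 of the summed class III level in iRGCs and 84.3% ± 1.56 in cRGCs (SD, n = 3, exact permutation p = 0.8). Pou3f2 gave 15.3% ± 2.84 and 12.7% ± 1.3 (p = 0.3, exact permutation test). Pou3f3 gave 0.573% ± 0.141 in iRGCs and 1.96% ± 0.721 in cRGCs, without overlap (exact permutation p = 0.1, the smallest that 3 against 3 libraries can give). Without iRGC replicate 1 the differences in share (iRGC minus cRGC) were -1.99, 4.19 and -1.31 percentage points for Pou3f1, Pou3f2 and Pou3f3, against -0.257, 2.56 and -1.39 with it. Paralogues were also compared within each library as log2 ratios of CPM + 0.5, a pseudocount that draws the ratios to the low gene Pou3f3 towards 0. The log2 ratio of Pou3f2 to Pou3f3 was 3.77, 3.88 and 3.77 in the iRGC libraries and 1.85, 1.89 and 2.96 in the cRGC libraries, a difference of 1.57 without overlap. The ratio of Pou3f1 to Pou3f3 differed by 1.32 and also did not overlap, while that of Pou3f1 to Pou3f2 differed by -0.26 and overlapped. The 2 former had an exact permutation p of 0.1 and the last 0.3 (two-sided, 0.133 and 0.3 after Benjamini-Hochberg adjustment over 4 ratios). With a pseudocount of 0.1 the differences against Pou3f3 were 1.88 for Pou3f2 and 1.62 for Pou3f1. Without iRGC replicate 1 the differences were 1.59 for Pou3f2 to Pou3f3, 1.15 for Pou3f1 to Pou3f3 and -0.45 for Pou3f1 to Pou3f2.

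Of the class II genes, Pou2f2 was lower in iRGCs and Pou2f1 did not pass the test. Pou2f2, which spans chr7:25087344-25179726 on the minus strand, stood at 96.5, 104 and 119 CPM in the iRGC libraries and at 267, 229 and 320 CPM in the cRGC libraries. Each cRGC library was far above each iRGC library. Its log2 fold change was -1.35 ± 0.146 (standard error; edgeR adjusted p = 2.58e-04), or 39.1% of the cRGC level, and it passed in each fit that left out a library (-1.45 to -1.21, and -1.29 without iRGC replicate 1). The B cell marker Cd79a was at or near 0, as given above. D930028M14Rik, a long noncoding RNA gene on the opposite strand that lies within Pou2f2 without sharing exon bases, was lower in iRGCs as well (28.4, 47 and 46.2 against 69.1, 69.8 and 121 CPM; log2 fold change -1.10, adjusted p = 0.0102).

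Pou2f1, a widely expressed factor at snRNA and histone gene promoters, spans chr1:165865154-166002678 on the minus strand. Its level was 125, 120 and 93.2 CPM in the iRGC libraries and 115, 82.1 and 82 CPM in the cRGC libraries. The groups overlapped, iRGC replicate 3 lying below cRGC replicate 1, and the log2 fold change was 0.28 ± 0.169 (standard error; edgeR adjusted p = 0.229) with a 95% interval from -0.10 to 0.66. It passed the threshold as higher in iRGCs without iRGC replicate 3 (0.39, adjusted p = 0.0913) or without cRGC replicate 1 (0.45, adjusted p = 0.0767), and was 0.20 without iRGC replicate 1 (adjusted p = 0.46). Cd247, which overlaps its exons, stood at no more than 1.24 CPM in any library. The log2 ratio of Pou2f1 to Pou2f2 was 0.38, 0.21 and -0.35 in the iRGC libraries and -1.22, -1.47 and -1.96 in the cRGC libraries. These values did not overlap (difference 1.63, exact permutation p = 0.1, 0.133 after adjustment over the 4 ratios), and the difference was 1.48 without iRGC replicate 1.

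Pou6f1, a brain POU gene at chr15:100575318-100599984 on the minus strand, stood at 32.7, 32 and 51.1 CPM in the iRGC libraries and at 102, 66.9 and 46.1 CPM in the cRGC libraries. The groups overlapped, since cRGC replicate 3 lay below iRGC replicate 3. The log2 fold change was -0.89 ± 0.292 (standard error; edgeR adjusted p = 0.038), or 54% of the cRGC level. The call rested on single libraries: the adjusted p was 0.113 without iRGC replicate 1 (-0.78), 0.129 without iRGC replicate 2 (-0.77) and 0.129 without cRGC replicate 1 (-0.56).

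Among those of the other POU genes that are reported here, the 3 class IV genes passed the filter and were lower in iRGCs. Pou4f1 stood at 107, 117 and 182 CPM in the iRGC libraries and at 861, 672 and 431 CPM in the cRGC libraries (log2 fold change -2.28 ± 0.279, standard error, edgeR adjusted p = 4.00e-04). Pou4f3 followed (-1.96 ± 0.45, adjusted p = 0.00795), and Pou4f2, whose locus drives Cre in the cRGC mice and so took part in choosing the cells, had -1.15 ± 0.234 (adjusted p = 0.00424). Pou1f1 had no count, and Pou2f3, Pou5f1 and Pou5f2 stayed below 0.6 CPM in each library. The cRGC libraries differed among themselves in a way that was not the same for all POU genes: replicate 3 was the lowest of the 3 for Pou2f1, Pou3f1, Pou3f3, Pou6f1, Pou4f1 and Pou4f3 and the highest for Pou2f2, Pou3f4 and Pou4f2.

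**Figure D4:**
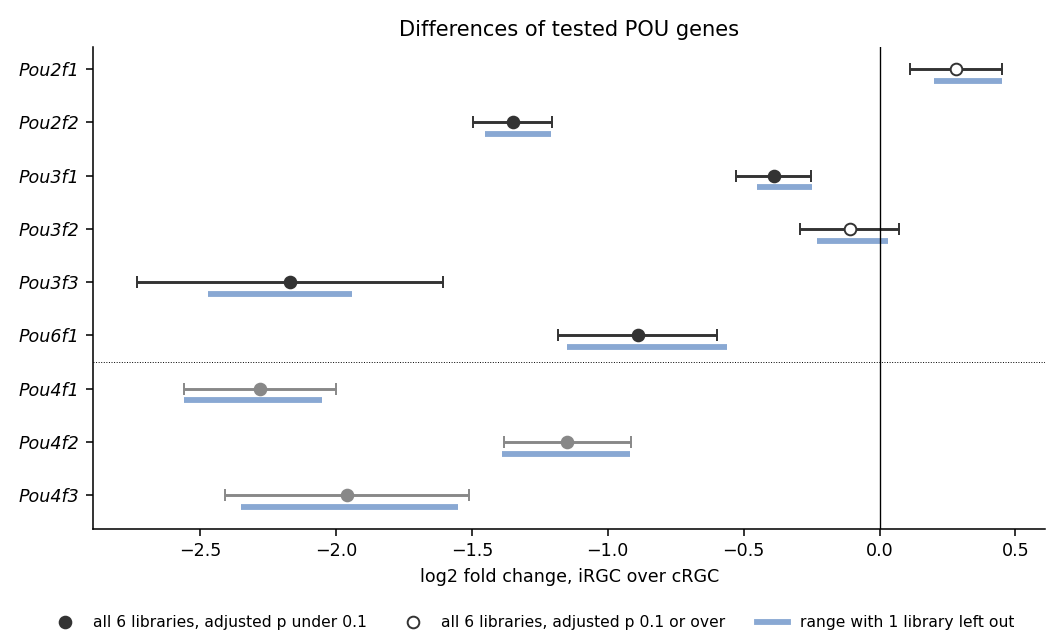
Log2 fold change (iRGC over cRGC) of the 6 tested genes and the 3 class IV genes with its SE; filled symbols have an adjusted p under 0.1, and blue bars give the range over fits with 1 library left out. The dotted line parts the 6 genes described here from the class IV genes; Pou2f1 and Pou3f2 are the genes that did not pass.

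The members were also set against the ganglion cell markers of the same library, as log2(CPM + 0.5) minus the mean over the 14 markers. On this scale Pou3f2 stood at -3.31, -3.22 and -3.75 in the iRGC libraries and at -5.25, -5.23 and -5.16 in the cRGC libraries, so that it was higher in iRGCs by 1.79 without overlap. Pou2f1 (2.19), Pou3f1 (1.53) and Pou6f1 (1.07) were likewise higher in each iRGC library than in any cRGC library. Pou2f2 was higher by 0.57 with overlap, and Pou3f3 differed by 0.22 with overlap, a value that became -0.08 with a pseudocount of 0.1. At the pseudocount of 0.5 the Pou3f3 difference was -0.12 without cRGC replicate 3 and 0.39 without cRGC replicate 1. The exact permutation p was 0.1 for the 4 genes without overlap, 0.2 for Pou2f2 and 0.5 for Pou3f3 (two-sided; 0.15, 0.24 and 0.5 after Benjamini-Hochberg adjustment over 6 genes). Without iRGC replicate 1 the differences were 1.91 for Pou2f1, 0.43 for Pou2f2, 1.29 for Pou3f1, 1.73 for Pou3f2, 0.14 for Pou3f3 and 0.97 for Pou6f1. For Pou2f2, Pou3f1, Pou3f2 and Pou6f1 the sign was thus opposite to that on the CPM scale. So it was for Pou3f3 at the pseudocount of 0.5 with all libraries, but not without cRGC replicate 3. Pou2f2, Pou3f1, Pou3f2 and Pou6f1 were lower in iRGCs by less than the markers (median log2 fold change -1.93). The log2 fold change of Pou3f3 (-2.17) was larger in size than this median, and its sign on the marker scale depended on the pseudocount.

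**Figure D5:**
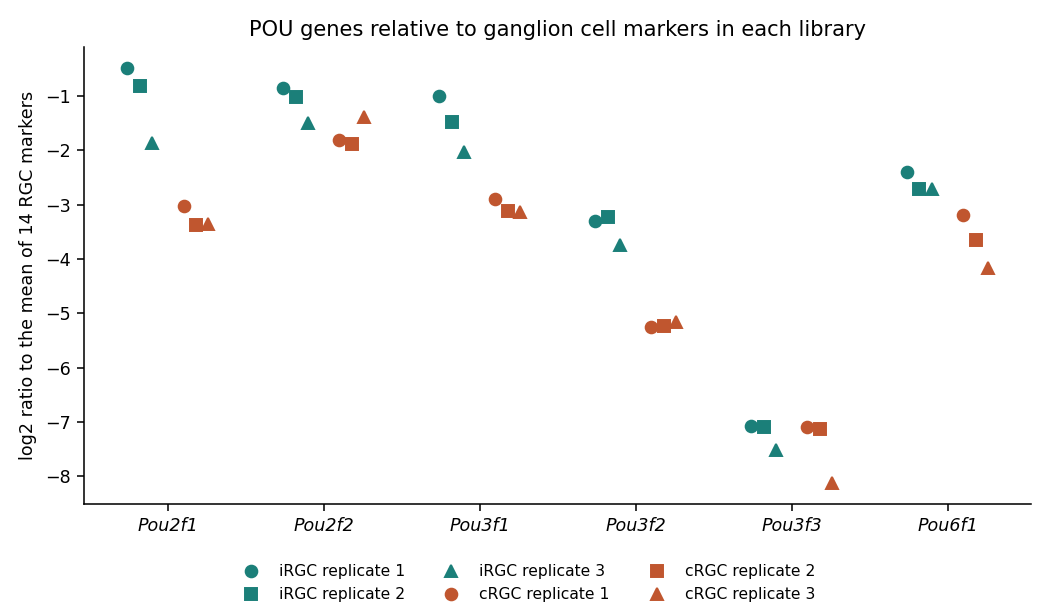
Log2 ratio of 6 POU genes to the mean of 14 ganglion cell markers in each library, iRGC in green and cRGC in orange, 1 symbol per replicate. Pou2f1, Pou3f1, Pou3f2 and Pou6f1 are higher in all iRGC libraries on this scale, by 1.07 to 2.19, whereas Pou2f2 and Pou3f3 overlap. The markers are themselves lower in iRGCs (median log2 fold change -1.93), which raises any gene on this scale.

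Of 11 tested octamer factor cofactors and snRNA promoter factors, 2 were lower and 3 higher in iRGCs and 6 did not pass (median log2 fold change 0.01), shares close to the 23.1% lower and 23.3% higher over all tested genes. Without iRGC replicate 1 the counts were 1 lower and 2 higher. The lower ones were the SNAPc subunit genes Snapc3 (-0.52) and Snapc1 (-0.35). The higher ones were Zfp143 (0.55), the TATA-binding protein gene Tbp (0.50) and Hcfc1 (0.26), the most abundant of the list. Pou2af1, the B cell coactivator of class II factors, was at most 1.29 CPM and was not tested.

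Partners and studied targets of class III factors moved in both directions. Over all tested genes 23.1% were lower and 23.3% higher in iRGCs. Of the 11 tested here, 3 were lower and 7 higher (median log2 fold change 1.55), the same counts as without iRGC replicate 1. The higher genes were led by Egr2 (3.03), a target of Pou3f1 in Schwann cells, Sox2 (2.62), a partner at neural enhancers, and Fabp7 (2.36), which is expressed in radial glia. The lower ones were the neuronal Cdk5 activator genes Cdk5r2 (-2.00) and Cdk5r1 (-1.59) and the abundant partner gene Sox11 (-0.52). Sox2 is also in the progenitor list and Dll1 in the neurogenic list. Among 10 genes that set retinal birth order or cone fate, 7 were higher and 1 lower (median 1.89). The shares over all tested genes were 23.3% higher and 23.1% lower, and the counts were the same without iRGC replicate 1. Of the 7 higher genes, Otx2, Crx, Nrl and Thrb were already counted in the photoreceptor list, and Onecut1 and Onecut2 are also in the horizontal cell list. Foxn4 (2.61) and Otx2 (2.37) were among the higher, and Ikzf1 had 35, 33 and 11 counts in the iRGC libraries and 0 in each cRGC library. The cone receptor gene Rxrg was lower (-1.08), and the most abundant gene of the list, Onecut2, had -0.56 (adjusted p = 0.117).

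The nearest annotated genes did not all move with the members. Around Pou3f3, the noncoding genes Pantr1, 925 bp away, and Pantr2, 3884 bp away, were too low to be tested. Pantr1 was at most 0.0315 CPM in the iRGC libraries and 0.807, 0.311 and 0.742 CPM in the cRGC libraries. Beside Pou2f2, Zfp574 (0.28, adjusted p = 0.285) and Dedd2 (-0.39, adjusted p = 0.194) did not pass. Beside Pou3f2, Fbxl4 was lower in iRGCs (-0.49, adjusted p = 0.0838), and Gm30731 did not pass (adjusted p = 0.965). Utp11 beside Pou3f1 was higher (0.49, adjusted p = 0.0814), with 3100002H09Rik on the other side not passing (adjusted p = 0.407). Tfcp2 beside Pou6f1 had -0.07 (adjusted p = 0.704), and C330013E15Rik -1.91 (adjusted p = 0.293). The neighbours of Pou2f1 (Gm37469 and Gm26665) and of Pou3f4 (Gm26108 and Cylc1) were at or near 0.

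Genes with the most similar pattern were ranked by Pearson's r of log2(CPM + 0.5) over the 6 libraries, among 10274 other genes with a mean of at least 10 CPM (10275 for Pou3f3). For Pou3f3 they were Arhgef12 (r = 0.9999), Isl2 (0.9968), a transcription factor gene of cRGCs, and B3glct (0.9967). For Pou2f2 they were Scrn1 (0.9991), Mindy2 (0.999) and Tcaf1 (0.9985), and 86 genes exceeded 0.99. For Pou3f1 they were 1700048O20Rik, Dop1a and Gm43737 (0.9979 to 0.987). Pou3f2 was closest to Map3k14, Dnal4 and Ngrn, Pou2f1 to Nol10, Mga and Ep400, and Pou6f1 to Dtx3, Flvcr1 and 2210016L21Rik, with r from 0.9881 to 0.9966. With 6 points that share their libraries these are descriptions.

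The octamer was searched in RefSeq promoters on GRCm38.p6, from 250 bases before to 50 after the start of a transcript, on both strands. The table held 6 of the 7 genes, all but Pou3f1, and no promoter of the 6 contained ATGCAAAT. Over all 32851 promoters 1.74% contained it. The share was 1.63% for genes lower in iRGCs, 1.64% for genes higher and 1.64% for genes that did not pass.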

How the data were processed

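Polyadenylated RNA of sorted cells was sequenced in 3 iRGC and 3 cRGC libraries. The values are counts per gene deposited by the authors, who per the labels and the study's methods aligned reads with HISAT2 (version 2.1.0) to mm10 and counted them with HTSeq (0.11.1) on Ensembl GRCm38 genes; the strand setting was not stated. Reads on no gene were 12.3% to 23.3% of uniquely aligned reads and stayed out of library sizes. The 13 ATAC-seq samples were not analysed here.

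Symbols and positions came from GENCODE M21 (46574 of 47069 identifiers matched). Counts were tested with edgeR (4.0.16) by the quasi-likelihood test after filterByExpr and TMM scaling, without a block, over 15941 genes with Benjamini-Hochberg adjustment at 0.1. Scripts were tested on simulated data. Alternatives used other scalings, DESeq2 (1.42.0), limma voom (3.58.1), other filters, a replicate block and each library left out. Members and lists were chosen with earlier results of these data known. Genes were named by rule: POU genes, the 3 largest called changes per direction and the most abundant gene of each list (for lists of other cells, its leading genes), driver genes, neighbours and the 3 most alike genes. A few genes that this rule names are not reported here.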

Additional observations from a re-analysis of the deposited data

How the results depend on the processing

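Other scalings, DESeq2, limma voom and other filters changed no direction or call of the 6 tested POU genes at an adjusted p under 0.1. At 0.05 Pou3f1 (-0.39) was not called. With 1 library left out, log2 fold changes ranged from 0.20 to 0.45 for Pou2f1, -0.45 to -0.25 for Pou3f1, -0.23 to 0.03 for Pou3f2 (0.03 without iRGC replicate 1, the cause was not tested) and -1.15 to -0.56 for Pou6f1. For Pou3f4 in the fit without a filter, chosen after seeing the data, they ranged from -7.72 to -3.44. The POU genes lower ranged from 2 to 5 and higher from 0 to 1. The 5 include Pou3f4, which passed the filter only in fits with 1 library left out. Octamer cofactors lower ranged from 0 to 3 and higher from 1 to 3, and were 1 lower with no filter, the replicate block or a threshold of 0.05. Temporal and cone genes lower ranged from 1 to 3, and were 3 with DESeq2, voom and no filter and 2 with at least 10 counts in every library. The difference in the Pou3f3 share of class III was -2.485 percentage points from raw counts.

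Same-numbered libraries did not deviate together in their gene levels (r = -0.014, -0.045 and -0.067, against -0.024 to 0.07 for other pairs). With 3 libraries per population these values cannot show whether such libraries shared a litter or a day. With the replicate block, 3435 genes were lower and 3316 higher, and Pou3f3 (-2.10, adjusted p = 0.0576) and Pou6f1 (-0.86, adjusted p = 0.0931) stayed called. Replicates differed by more than counting noise (chi-square per degree of freedom 23.7 to 65.9). Pou3f4 had 3 counts over the iRGC libraries.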
